A study of Drosophila melanogaster with 35 samples.

Results

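Male flies kept in pure oxygen were compared with young untreated males across all genes of the array, using 12 of the 35 arrays of the series, which are the 6 labelled Hyperoxia and the 6 labelled Young controls. The arrays were chosen by these titles alone. The hyperoxia flies (8 days old) had spent 5 days in an atmosphere of 100% oxygen from 3 days of age, by which time about 50% of the cohort was still alive, so that survivors were sampled. The young controls were 10 days old, and the part of this difference in age cannot be told apart from that of oxygen. The methods of the study state an older starting age for its stress treatments than these labels do. All groups named here were males raised on standard food at 25 degrees, hybrids of Oregon-R and a laboratory stock, of genotype w[1118]/+; P{w+ rtTA}(3)[E2]/+, so that treated flies and controls alike carried the rtTA transgene, a driver of tetracycline-dependent expression. Each array was made from RNA of 25 flies, and the RNA of many tissues is mixed in it. Fewer cells of a type and less RNA per cell therefore cannot be told apart. The arrays of both groups came from an earlier experiment of the same laboratory, as did 4 arrays of males aged 61 days (Old, about 50% of the cohort alive). The 4 Hydrogen peroxide arrays (11 days old) came from males kept for 2 days on 1% sucrose with 3% hydrogen peroxide, and these and their 4 Stress controls (9 days old, not kept on sucrose) belong to a later experiment.

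Oxygen above its normal pressure raises the leak of electrons to oxygen in mitochondria, and the superoxide and hydrogen peroxide that form damage iron-sulfur clusters, lipids, proteins and DNA. Cells answer with superoxide dismutases, catalase and peroxidases that remove these species, with glutathione S-transferases and cytochromes P450 that act on damaged or foreign molecules, with ferritin that binds free iron, and with heat shock proteins that hold unfolded proteins. In flies, pure oxygen shortens life to a matter of days, and flight muscle, which is packed with mitochondria, is among the tissues known to suffer.

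The signal of a probe set, a group of short probes for 1 transcript, is given after quantile normalization, which gives every array the same distribution of values. Median signals before that step ran from 378.3 to 419.1 in hyperoxia and from 382.1 to 404 in young controls, and the ratio of 3' to 5' signal of the Actin control probes ran from 3.17 to 6.33 in hyperoxia and from 2.73 to 7.09 in young controls, ranges that overlap. Spearman correlations were 0.946 to 0.959 within hyperoxia, 0.948 to 0.964 within young controls and 0.931 to 0.947 between the groups. The first principal component of the 12 arrays took 27.3% of the variance and separated the groups, and Young controls replicate 3 lay farthest out on the second (9.86%). The labelled sex was checked with marker genes. The 14 genes of the female reproductive tract and yolk, none of them called (the yolk gene Yp2 at 0.30, adjusted p = 0.651), summed to 3908 to 7170 in hyperoxia, against 3884 to 5693 in young controls, while the 27 testis genes summed to 252156 to 270243 in hyperoxia, against 205981 to 230914 in young controls. Summed signals of the 15 photoreceptor genes were 35930 to 46938 in hyperoxia, against 50727 to 54817 in young controls, those of the 17 muscle genes 109969 to 117518 in hyperoxia, against 97846 to 109555 in young controls, those of the 17 neuronal genes 6283 to 7360 in hyperoxia, against 7019 to 7792 in young controls and those of the 16 genes of melanization and blood cells 16234 to 19636 in hyperoxia, against 19424 to 21629 in young controls. The part of these differences between tissue markers in the results below was not tested.

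Of 10827 genes, 373 were up-regulated in hyperoxia (3.45% of those tested) and 518 were down-regulated (4.78%), together 891 (8.23%). On the values as deposited, without quantile normalization, 580 were up-regulated and 595 down-regulated, so that 49.4% of the calls were increases, against 41.9% after it. With each array scaled to a common median instead, 369 were up-regulated and 544 down-regulated, and 40.4% of the calls were increases. A gene was called by the nested F-test of limma over the 6 treatments of the series at a false discovery rate (FDR) of 1% together with a fold change of at least 1.5, and the adjusted p printed beside a gene is limma's moderated test of hyperoxia against young controls with Benjamini-Hochberg adjustment over all probe sets. Of the genes called, 109 had an adjusted p of 0.01 or more, since the nested test also uses the other treatments. Fold changes are on a log2 scale after a pseudocount of 34.1 was added to the signal, which pulls the changes of dim genes toward 0. Changes of at least 4-fold were seen for 22 up-regulated and 36 down-regulated genes. The median log2 fold change over all genes was 0.015. All 6 hyperoxia arrays lay above all 6 young arrays for 628 genes (5.80%) and below them for 671 (6.20%), among them 281 of the up-regulated and 417 of the down-regulated genes. In the plot of all genes the strongest single change is the heat shock gene Hsp70, and the largest decreases include bright genes of the gut.

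**Figure D1:**
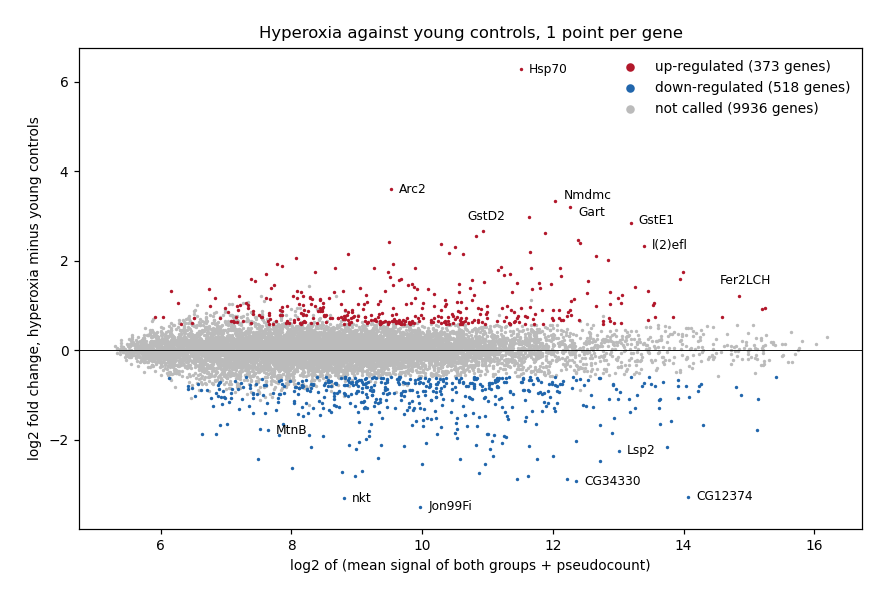
Each point is 1 of 10827 genes, with its mean signal on the x axis (log2 after the pseudocount) and its log2 fold change, hyperoxia minus young controls, on the y axis. Red points are the 373 up-regulated and blue points the 518 down-regulated genes, with Hsp70 at the top (6.28) and Jon99Fi at the bottom (-3.50).

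The genes with the largest changes outside the lists are mostly known by their sequence alone. Signals are given here and below as the lowest, the median and the highest of the 6 arrays of a group. CG10383 gave 7643, 8803 and 11618 in hyperoxia, against 1028, 1774 and 1925 in young controls, without overlap (log2 fold change 2.47, SE 0.13, adjusted p = 1.25e-15). CG7632 gave 2809, 3291 and 3866 in hyperoxia, against 439, 491 and 592 in young controls, as clearly apart (log2 fold change 2.66, SE 0.14, adjusted p = 1.35e-15). The acyl-CoA synthetase gene hll and the secreted phospholipase gene GIIIspla2 rose by 2.42 (adjusted p = 2.06e-09) and 2.37 (adjusted p = 5.67e-08). Among the decreases, nkt gave 31.8, 42.3 and 71.5 in hyperoxia, against 513, 694 and 1136 in young controls, close to the background in hyperoxia (log2 fold change -3.30, SE 0.29, adjusted p = 2.87e-10). CG34330 gave 726, 1276 and 1629.7 in hyperoxia, against 8456, 9007 and 10284 in young controls, a fall from a bright signal without overlap (log2 fold change -2.93, SE 0.13, adjusted p = 5.87e-17). The genes CG11911, CG3984, CG3739, CG18493, CG16762, CG11912 and CG17633 followed with log2 fold changes of -2.87, -2.82, -2.81, -2.74, -2.71, -2.62 and -2.48, and their arrays did not overlap either. CG10657 fell as well, without overlap, with 174.1 to 740.7 in hyperoxia, against 1188.6 to 2199.9 in young controls. Its Hyperoxia replicate 2 (740.7) stood far above the rest of its group, which reached at most 263.6.

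Heat shock genes were among the strongest increases, led by Hsp70. Of 5 measured inducible heat shock genes and co-chaperones, 3 were up-regulated and none fell (60%, against 3.45% of all genes; median log2 fold change 1.23, against 0.015 for all genes). Hsp70, the main chaperone of the heat shock response, whose near-identical gene copies are measured together, gave 3672, 5555 and 8350.4 in hyperoxia, against 11.8, 31.2 and 124 in young controls. Its signal was near the background on most young arrays and high on every hyperoxia array (log2 fold change 6.28, SE 0.29, adjusted p = 1.23e-16). Hsp68, a close relative of Hsp70, gave 1768, 2308 and 3234 in hyperoxia, against 362, 407 and 606 in young controls, without overlap (log2 fold change 2.31, SE 0.21, adjusted p = 8.95e-10). The co-chaperone starvin (stv) rose as well, by 1.23 (SE 0.15, adjusted p = 2.30e-07) on the log2 scale. A probe set named Hsp83, the fly Hsp90, through the gene tables of the study and not counted in any list, rose by 0.85 (SE 0.11, adjusted p = 2.41e-07), and one named Hsp23 in the same way by 0.82 (SE 0.15, adjusted p = 1.67e-04). The paper presents those tables as genes it found changed at 1.2-fold and an FDR of 1%. Probe sets named this way, here and below, were thus chosen by change in the same series, and add no support to a list. Among 6 small heat shock proteins, which bind unfolded proteins without ATP, 2 rose (33.3%, against 3.45% of all genes). The small heat shock gene l(2)efl gave 16544, 17912 and 19576 in hyperoxia, against 3205, 3454 and 4024 in young controls. These groups were well apart and tight (log2 fold change 2.33, SE 0.10, adjusted p = 1.84e-17). Hsp26 rose by 1.81 (SE 0.18, adjusted p = 5.39e-09). The 3 probe sets of mitochondrial Hsp22, which the platform table assigns to Hsp22 and CG4456 together, had log2 fold changes of 0.72, 1.25 and 0.37, the last of which was not called. The probe set with the largest of these gave 4601, 6076 and 6804 in hyperoxia, against 1573, 2571 and 3898 in young controls, without overlap.

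Some constitutive chaperones rose as well. Of 17 chaperonins and constitutive chaperones, 4 were up-regulated (23.5%, against 3.45% of all genes), all 17 log2 fold changes were above 0, and the median was 0.34. Hsc70-5, the Hsp70 of the mitochondrial matrix, rose by 0.77 (SE 0.13, adjusted p = 6.80e-05). The chaperonin subunits CCT2 and CCT1, parts of the ring that folds actin and tubulin, rose by 0.71 (adjusted p = 1.15e-06) and 0.63 (adjusted p = 2.15e-06), although CCT2 missed the fold threshold when the log2 values of all its probe sets were averaged (0.54). None of the 14 chaperones and stress genes of the endoplasmic reticulum was called (median -0.02), near the 8.23% of all genes for a list this short. Protein disulfide isomerase (Pdi) and calnexin (Cnx99A), which help secreted proteins to fold, had log2 fold changes of -0.10 (adjusted p = 0.808) and 0.11 (adjusted p = 0.497). A probe set named Xbp1, a transcription factor of the unfolded protein response, only through the study's gene tables rose by 0.74 (SE 0.11, adjusted p = 6.33e-06). None of the 18 genes of signal peptide processing and the translocon was called, against 8.23% of all genes, though 15 of them lay below 0 (median -0.19). Sec61beta, a subunit of the channel that passes proteins into the endoplasmic reticulum, was at -0.31 (adjusted p = 0.00191).

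Enzymes that build purines and carry one-carbon units held several of the largest increases. Of 10 purine synthesis genes, 6 were up-regulated and none fell (60%, against 3.45% of all genes; median 1.23). Gart, the trifunctional enzyme of 3 steps of the pathway, gave 7976, 8839 and 9609 in hyperoxia, against 744, 978 and 1051 in young controls. The lowest hyperoxia array was several times the highest young array (log2 fold change 3.21, SE 0.09, adjusted p = 2.00e-21). Pfas, which catalyses the step between those of Gart, gave 7482, 9604 and 10257 in hyperoxia, against 1462, 1751 and 1914 in young controls, again without overlap (log2 fold change 2.40, SE 0.09, adjusted p = 1.69e-18). Prps, which makes the activated ribose on which the ring is built, gave 10629.7, 11787 and 12872 in hyperoxia, against 2469.8, 2861 and 3559 in young controls. Its groups were as clearly apart (log2 fold change 2.02, SE 0.13, adjusted p = 1.01e-13). Paics and Adsl, enzymes of later steps, rose by 1.75 (adjusted p = 3.77e-19) and 1.85 (adjusted p = 1.09e-14). Adss, which turns IMP toward AMP, rose less, by 0.71 (adjusted p = 8.34e-06). The probe set shared by CG11089 (Atic, the enzyme of the last steps to IMP) and CG31381 gave 3596, 4258 and 5027 in hyperoxia, against 489, 572 and 833 in young controls, a log2 fold change of 2.69 (SE 0.15, adjusted p = 4.59e-15).

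Folate, serine and methionine enzymes supply the carbon units that Gart and Atic use. Of 16 measured, 10 rose and 1 fell (62.5% up; median 0.69). Nmdmc, a mitochondrial methylenetetrahydrofolate dehydrogenase, gave 6081, 7560 and 9078 in hyperoxia, against 529, 733 and 994 in young controls. All hyperoxia arrays were high and all young arrays low (log2 fold change 3.34, SE 0.17, adjusted p = 4.68e-16). Its cytosolic counterpart pug gave 6264, 6899.6 and 7034 in hyperoxia, against 1855, 2134 and 2335 in young controls, without overlap (log2 fold change 1.67, SE 0.13, adjusted p = 3.83e-11). In the serine pathway, astray (aay), the phosphatase of its last step, rose by 1.84 (SE 0.09, adjusted p = 3.89e-16), and CG11899, the aminotransferase before it, by 1.48 (SE 0.10, adjusted p = 2.09e-12). CG6287, the dehydrogenase that opens the pathway, rose by 0.60 (SE 0.09, adjusted p = 5.18e-06), just past the threshold, and missed it when arrays were used as deposited (0.54) or scaled to a common median (0.51). Shmt, which splits serine into glycine and a one-carbon unit, rose by 1.37 (SE 0.16, adjusted p = 6.71e-08). In the methionine cycle Ahcy rose by 1.05 (adjusted p = 5.33e-08) and Gnmt, a glycine methyltransferase, by 0.62 (adjusted p = 4.68e-05). The member that fell was CG8665, predicted to be a formyltetrahydrofolate dehydrogenase, which releases one-carbon units as carbon dioxide. It gave 239, 356 and 519 in hyperoxia, against 427, 611 and 679 in young controls. Its arrays overlapped in part (log2 fold change -0.68, SE 0.18, adjusted p = 0.00656), and without Hyperoxia replicate 2 the call was lost (-0.58, adjusted p = 0.0258).

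The lists of protein synthesis and growth control held 1 or 2 called genes each. Of 18 aminoacyl-tRNA synthetases, which load amino acids onto tRNA, 2 were up-regulated (11.1%, against 3.45% of all genes). They were HisRS at 0.85 (adjusted p = 3.10e-09) and TrpRS at 0.64 (adjusted p = 4.30e-05). All 18 log2 fold changes were above 0 (median 0.31, against 0.015 for all genes). A probe set named AspRS through the study's gene tables rose by 1.06 (adjusted p = 7.75e-12). In the list of integrated stress, FOXO and TOR genes 1 of 12 rose (8.33%). It was REPTOR, a transcription factor active when TOR is low, at 0.71 (adjusted p = 0.002), whereas cryptocephal (crc), the fly ATF4, was at 0.22 (adjusted p = 0.0321). Thor, the translation inhibitor 4E-BP and a FOXO target, was named only through the study's tables and gave 15079, 15733 and 18489 in hyperoxia, against 5888, 7337 and 8858 in young controls, without overlap (log2 fold change 1.14, SE 0.10, adjusted p = 3.84e-10). Of 37 cytosolic ribosomal protein genes 1 rose and none fell (median 0.09), and bright members such as RpS26 and RpS20 were at 0.14 (adjusted p = 0.0933) and -0.07 (adjusted p = 0.61).

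**Figure D2:**
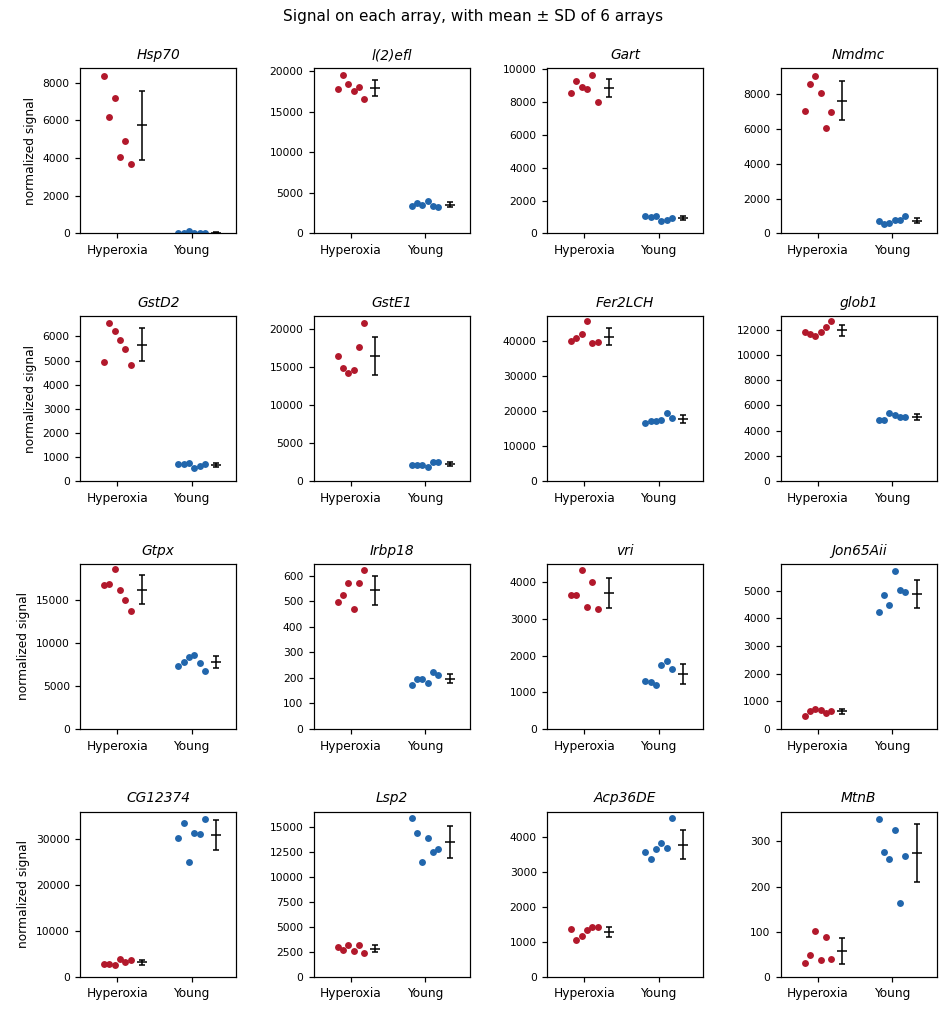
The normalized signal of 16 genes on each of the 6 hyperoxia arrays (red, left) and 6 young arrays (blue, right), with the mean and SD of each group in black and y axes starting at 0. No array of one group overlaps the other in any of the 16 genes. Hsp70 lies at 3672 to 8350 in hyperoxia and at or under 124 in young controls.

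Detoxifying enzymes changed in both directions, member by member. Of 35 glutathione S-transferases (GSTs), which attach glutathione to reactive molecules, 9 rose and 5 fell, shares of 25.7% and 14.3% against 3.45% and 4.78% of all genes (median 0.18). The rising members all belonged to the insect-specific delta and epsilon classes, where 5 of 11 GstD genes and 4 of 14 GstE genes were up-regulated. GstD2 gave 4836, 5669 and 6549 in hyperoxia, against 549.9, 707 and 737 in young controls. No hyperoxia array came near the young range (log2 fold change 2.99, SE 0.15, adjusted p = 4.68e-16). GstE1 gave 14220.5, 15637 and 20758 in hyperoxia, against 1889.6, 2165 and 2570.3 in young controls, as far apart (log2 fold change 2.86, SE 0.11, adjusted p = 1.50e-18). GstD1, one of the brightest genes of the family, gave 46630.3, 48906 and 53407 in hyperoxia, against 24879, 25949 and 26942 in young controls. It rose by less than GstD2 on the log2 scale, but every hyperoxia array was above every young array (log2 fold change 0.92, SE 0.06, adjusted p = 7.11e-13). GstE7, GstD5, GstD3, GstD9, GstE8 and GstE11 rose by 2.17, 2.15, 1.70, 1.51, 1.09 and 0.78. Neighbours in the same classes fell. GstE10 gave 144, 209 and 240.5 in hyperoxia, against 792, 872 and 926 in young controls, without overlap (log2 fold change -1.99, SE 0.18, adjusted p = 3.92e-10). GstD11 and GstD7 fell, with log2 fold changes of -1.19 (adjusted p = 0.00139) and -1.14 (adjusted p = 0.00278). Outside these classes GstZ1 fell, with 115, 629.5 and 768.2 in hyperoxia, against 907, 1082 and 1145 in young controls (log2 fold change -1.03, SE 0.31, adjusted p = 0.0211), where Hyperoxia replicate 2 was the lowest array. The sequences of many of these genes are alike, so part of a signal may come from a relative.

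Cytochromes P450, oxidases of hormones, fatty acids and toxins, were split in the same way, with 10 of 80 up and 9 down (12.5% and 11.2%; median -0.04). Cyp4e3 gave 2814, 3106 and 3319 in hyperoxia, against 373, 508 and 568 in young controls. It was the P450 with the largest rise (log2 fold change 2.56, SE 0.14, adjusted p = 7.78e-15). Cyp309a1 rose by 1.52 (adjusted p = 1.69e-09) and Cyp309a2 by 1.17 (adjusted p = 1.85e-04). Cyp4d14 gave 147, 172 and 207 in hyperoxia, against 755, 798 and 913 in young controls, the largest fall of the family (log2 fold change -2.04, SE 0.09, adjusted p = 4.69e-17), followed by Cyp6t1 at -1.38 (adjusted p = 7.35e-05) and Cyp4ac2 at -1.18 (adjusted p = 7.73e-09). Of 33 UDP-glycosyltransferases, which add sugars to small molecules, 4 fell and 1 rose (12.1% and 3.03%). Ugt37B1 gave 20.9, 78.8 and 179.6 in hyperoxia, against 359.8, 476 and 558 in young controls, without overlap (log2 fold change -2.17, SE 0.24, adjusted p = 2.28e-08). Ugt35B1, a bright member, fell by 1.17 (adjusted p = 1.45e-10). Ugt49C1 was the member that rose (1.13, adjusted p = 1.06e-08).

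Among enzymes that remove superoxide and peroxides, the share called up was near that of all genes. Of 22 antioxidant enzymes 1 was up-regulated and none fell (4.55%, against 3.45% of all genes; median 0.11), although leaving out single arrays gave up to 3. That gene, Gtpx, a glutathione peroxidase homologue, gave 13746, 16514 and 18647 in hyperoxia, against 6708, 7739 and 8648 in young controls. Its groups did not overlap (log2 fold change 1.06, SE 0.09, adjusted p = 7.93e-11). Catalase (Cat) gave 13297, 13820.5 and 14419 in hyperoxia, against 10206, 11986 and 12697 in young controls. Although every hyperoxia array was above every young array, the difference was small and was not called (log2 fold change 0.23, SE 0.08, adjusted p = 0.065). Sod2, the mitochondrial superoxide dismutase, chosen after its value was seen, gave 4204, 4480.4 and 5043 in hyperoxia, against 4443, 4586 and 4743 in young controls. These ranges overlapped (log2 fold change -0.01, SE 0.07, adjusted p = 0.951). Thioredoxin Trx2 was at 0.07 (adjusted p = 0.648).

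Genes of iron storage and iron-sulfur clusters were among those that rose. In the list of metallothioneins and iron, 7 of 23 rose and 1 fell (30.4% and 4.35%; median 0.18). Fer2LCH, the ferritin light chain, gave 39402, 40336 and 45619 in hyperoxia, against 16473, 17340.2 and 19576 in young controls. Fer1HCH, the heavy chain that oxidizes iron for storage, gave 47796, 50698 and 54321 in hyperoxia, against 25974, 26348 and 27090.4 in young controls. Both are among the brightest genes on the array and neither overlapped between groups, with log2 fold changes of 1.22 (SE 0.07, adjusted p = 3.30e-15) and 0.95 (SE 0.07, adjusted p = 3.76e-12). Nfs1, the desulfurase that provides sulfur for iron-sulfur clusters, gave 6104, 6378 and 6518 in hyperoxia, against 3207, 3381 and 3528 in young controls, without overlap (log2 fold change 0.90, SE 0.08, adjusted p = 2.67e-10). IscU, the scaffold on which the clusters form, rose by 0.75 (adjusted p = 1.29e-07), Alas, the first enzyme of heme synthesis, by 0.67 (adjusted p = 1.61e-06), and Zip99C, which moves iron into the secretory pathway, by 0.90 (adjusted p = 3.02e-08). The metallothionein MtnB, a small copper-binding and cadmium-binding protein, moved the other way. It gave 31.1, 42.9 and 101 in hyperoxia, against 164, 273 and 350 in young controls. All hyperoxia arrays were below all young arrays, at low signals (log2 fold change -1.78, SE 0.36, adjusted p = 4.78e-04).

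A hemoglobin gene and lactate dehydrogenase also rose. Of 9 genes of oxygen sensing and tracheae 1 rose (11.1%, against 3.45% of all genes) and none fell. It was glob1, a hemoglobin of fat body and tracheae, which gave 11491, 11849.8 and 12697 in hyperoxia, against 4842, 5086 and 5396 in young controls. The groups were tight and apart (log2 fold change 1.23, SE 0.07, adjusted p = 1.73e-14). A probe set named lactate dehydrogenase (Ldh) only through the study's gene tables gave 1524, 1641 and 1758 in hyperoxia, against 254, 392 and 644 in young controls, without overlap (log2 fold change 1.99, SE 0.16, adjusted p = 6.15e-11). Tango (tgo), the partner of the hypoxia factor, gave 591, 720 and 871 in hyperoxia, against 526, 711 and 988 in young controls. These ranges overlapped (log2 fold change -0.01, SE 0.12, adjusted p = 0.979).

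DNA damage and stress kinase genes included several that rose, many of them from low signals. Of 23 DNA damage genes 7 rose and none fell (30.4%; median 0.40). Irbp, the fly Ku70, which binds broken DNA ends, gave 191, 326 and 362 in hyperoxia, against 22.0, 55.5 and 110.4 in young controls. Its partner Ku80 gave 161, 277 and 323 in hyperoxia, against 115, 119 and 149 in young controls. Neither overlapped between groups, with log2 fold changes of 1.92 (SE 0.31, adjusted p = 2.20e-05) and 0.88 (SE 0.13, adjusted p = 8.10e-06). Irbp18, a bZIP factor that lies beside Irbp and pairs with the stress factor Xrp1, rose by 1.31 (SE 0.13, adjusted p = 2.15e-09), mre11, a nuclease of break repair, by 0.93 (adjusted p = 4.42e-07), and Corp, a p53 target that restrains p53, by 0.88 (adjusted p = 1.30e-05). The methyltransferase agt, which repairs alkylated guanine, rose by 0.66 (adjusted p = 8.68e-05). In the JNK pathway 3 of 11 rose and none fell (27.3%, against 3.45% of all genes). They were the phosphatase puckered (puc), a JNK target, at 0.80 (adjusted p = 4.11e-04), Gadd45 at 0.63 (adjusted p = 2.41e-04) and Jra, the fly Jun, at 0.60 (adjusted p = 3.78e-05). The calls of Gadd45 and Jra were lost when certain single arrays were left out. Arc2, a capsid-forming gene that neuronal activity induces, gave 1151, 1307 and 1513 in hyperoxia, against 36.6, 81.4 and 162 in young controls. It was the second largest rise of all genes (log2 fold change 3.60, SE 0.24, adjusted p = 7.95e-13), and stripe (sr), another activity-regulated gene, rose by 0.65 (adjusted p = 7.00e-04). Of 23 autophagy genes 2 rose (8.7%), among them ref(2)P, the fly p62 cargo receptor, by 0.67 (SE 0.09, adjusted p = 6.10e-07). None of 40 proteasome genes was called (median -0.03, range -0.38 to 0.30), and the bright core subunits Prosbeta6 and Prosbeta4 were at 0.20 (adjusted p = 0.0551) and 0.12 (adjusted p = 0.249).

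Several immune effector genes rose, with large differences among the young arrays. Of 9 antimicrobial peptide genes 3 rose and 1 fell (33.3% and 11.1%; median 1.11). Drosomycin (Drs), the antifungal peptide of the Toll pathway, gave 3764, 7541 and 8958 in hyperoxia, against 2354, 2632 and 5235 in young controls. Young controls replicate 5, the highest, reached into the hyperoxia range (log2 fold change 1.11, SE 0.23, adjusted p = 7.20e-04). Cecropin B (CecB) gave 258, 406 and 484 in hyperoxia, against 24.3, 47.1 and 213 in young controls, with all hyperoxia arrays above all young arrays (log2 fold change 2.05, SE 0.37, adjusted p = 1.12e-04). Defensin (Def) gave 78.9, 234 and 545 in hyperoxia, against 24.9, 42.4 and 256 in young controls, and the ranges overlapped (log2 fold change 1.40, SE 0.33, adjusted p = 0.00297). Metchnikowin (Mtk) gave 2139, 3364 and 3862 in hyperoxia, against 374, 757 and 8839.6 in young controls. Its 2 highest arrays of all were Young controls replicates 3 and 5, at 8839.6 and 8039, and the gene was not called (log2 fold change 1.12, SE 0.76, adjusted p = 0.397). Diptericin B (DptB), a target of the Imd pathway, had the same pattern, with 1317, 1770.2 and 3994 in hyperoxia, against 5437 and 5631 on those 2 young arrays (log2 fold change 0.80, SE 0.59, adjusted p = 0.445). With only the 12 arrays in the model, the calls of Drs and Def were lost. Leaving out both arrays, a choice made after seeing the data, gave 3 up and 1 down in this list with log2 fold changes of 2.38 for Mtk (adjusted p = 0.0214) and 1.90 for DptB (adjusted p = 0.00951), neither of them called by the nested test. A probe set named Attacin A (AttA) through the study's tables, in no count, gave 1751, 2400.3 and 4365 in hyperoxia, against 222, 304 and 1552 in young controls, without overlap (log2 fold change 2.31, SE 0.42, adjusted p = 1.34e-04). Of 8 bomanins, short secreted peptides of the Toll response, 2 rose (25%). BomS2 gave 2875, 4317 and 5252 in hyperoxia, against 1134, 1374 and 1758 in young controls, without overlap (log2 fold change 1.51, SE 0.21, adjusted p = 1.95e-06), and BomS1, named only through those tables, rose by 1.40 (SE 0.21, adjusted p = 1.00e-05).

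Members of the immune lists also fell. Drsl5, a drosomycin-like gene, gave 2925, 3240.4 and 3775 in hyperoxia, against 4907, 5524 and 6861 in young controls. It was lower on every hyperoxia array than on any young array (log2 fold change -0.76, SE 0.15, adjusted p = 3.45e-04). PGRP-SC2, a gut amidase that cleaves bacterial peptidoglycan and dampens the Imd response, gave 464, 784 and 986 in hyperoxia, against 3058, 3408 and 3764 in young controls, far apart (log2 fold change -2.21, SE 0.17, adjusted p = 9.75e-12). In all, 3 of 28 recognition and signaling genes rose and 3 fell (10.7% each, against 3.45% and 4.78% of all genes). Relish (Rel), the factor of the Imd pathway, was among those that rose, by 0.61 (adjusted p = 1.74e-04). Spatzle-processing enzyme (SPE), which activates the Toll ligand, fell by 0.64 (adjusted p = 0.00657). PGRP-SB1 was called only by the nested test, with overlapping arrays (-0.69, adjusted p = 0.0862). None of the 7 Turandot and JAK/STAT genes was called, with Stat92E at 0.00 (adjusted p = 0.999) and its receptor domeless (dome) at 0.41 (adjusted p = 0.00865). Among 16 genes of melanization and blood cells the nimrod gene NimC2 fell by 1.15 (adjusted p = 1.53e-04) and no other was called.

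**Figure D3:**
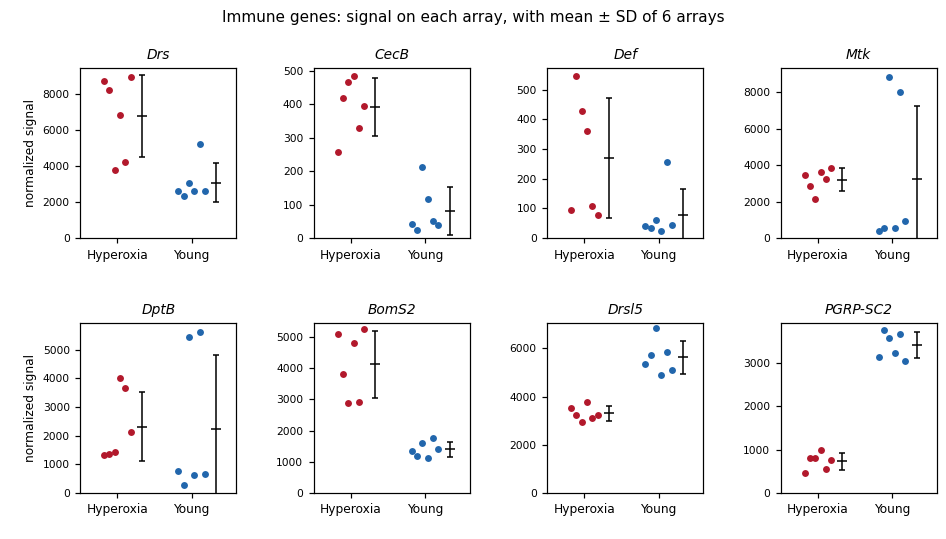
The normalized signal of 8 immune genes on each hyperoxia array (red, left) and each young array (blue, right), with mean and SD in black. For Mtk and DptB 2 young arrays stand above all 6 hyperoxia arrays, and PGRP-SC2 and Drsl5 are lower on every hyperoxia array.

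Digestive enzymes of the gut made up many of the largest decreases. Of 14 Jonah proteases, chymotrypsin-like enzymes of the midgut, 12 fell and none rose (85.7%, against 4.78% of all genes; median -1.41), and their summed signal was 71655 to 89733 in hyperoxia, against 188273 to 225147 in young controls. Jon99Fi gave 52.7, 126 and 232 in hyperoxia, against 1073, 1613 and 3035 in young controls. All hyperoxia arrays were far below all young arrays (log2 fold change -3.50, SE 0.28, adjusted p = 3.55e-11), and with a smaller pseudocount, at the 1st percentile of the signals, nkt fell as far (-3.85, against -3.76 for Jon99Fi). Jon65Aii gave 488, 664 and 740.2 in hyperoxia, against 4228, 4912 and 5712 in young controls, without overlap (log2 fold change -2.88, SE 0.17, adjusted p = 2.75e-14). Jon25Biii, a brighter member, gave 3480, 5403 and 5588 in hyperoxia, against 21116, 21701 and 25656 in young controls. It too was lower on every hyperoxia array (log2 fold change -2.17, SE 0.25, adjusted p = 7.94e-08). Jon44E, Jon99Fii and Jon65Ai fell to log2 fold changes of -2.72, -1.77 and -1.70. Of 11 gut trypsins 9 fell (81.8%; median -1.03). Ser8 gave 697, 936 and 1039 in hyperoxia, against 3241, 3292 and 4038 in young controls, without overlap (log2 fold change -1.89, SE 0.16, adjusted p = 7.93e-11). Next came thetaTry at -1.72 (adjusted p = 5.03e-11), lambdaTry at -1.64 (adjusted p = 5.13e-09) and epsilonTry at -1.39 (adjusted p = 1.91e-10). One of the 2 that were not called was alphaTry, a very bright gene, which gave 48397, 56248 and 66809 in hyperoxia, against 52050.2, 52729 and 62085 in young controls. Its ranges overlapped (log2 fold change 0.06, SE 0.12, adjusted p = 0.843). CG12374, a predicted carboxypeptidase in no list, gave 2674, 3084 and 3836 in hyperoxia, against 24988, 31394 and 34486 in young controls, the change of a gene that was among the brightest in young controls (log2 fold change -3.27, SE 0.15, adjusted p = 4.69e-17).

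Among other gut enzymes, many carbohydrases fell, and so did several alkaline phosphatases and a lipase. Of 19 gut carbohydrases 10 fell and 2 rose (52.6% and 10.5%; median -0.63). The alpha-mannosidase homologue LManIII gave 4.6, 17.5 and 59.3 in hyperoxia, against 215, 267 and 307 in young controls, near the background in hyperoxia (log2 fold change -2.43, SE 0.22, adjusted p = 7.82e-10). LManVI and LManV changed by -2.43 (adjusted p = 2.86e-09) and -2.02 (adjusted p = 8.34e-07), and the maltase Mal-A3 by -2.42 (adjusted p = 1.24e-07). Another maltase, Mal-B2, went the other way and gave 6210, 6331 and 7034 in hyperoxia, against 806, 1019.5 and 1183 in young controls, without overlap (log2 fold change 2.63, SE 0.14, adjusted p = 2.90e-15). Of 23 lipases, alkaline phosphatases and lysozymes 7 fell and 1 rose (30.4% and 4.35%), the decreases being those of 6 alkaline phosphatases and 1 of 4 lipases. Magro (mag), the main lipase of the gut, gave 380.5, 559.8 and 738 in hyperoxia, against 2406, 3608 and 4103 in young controls. All hyperoxia arrays were below all young arrays (log2 fold change -2.54, SE 0.19, adjusted p = 1.16e-11). Alkaline phosphatases Alp6 and Alp9 changed by -1.84 (adjusted p = 1.31e-11) and -1.75 (adjusted p = 3.23e-08). The lysozyme gene LysP was the member that rose (0.74, adjusted p = 6.13e-04).

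The list of stores held genes that rose and genes that fell. Of 26 genes of lipid and energy stores 4 rose and 5 fell (15.4% and 19.2%; median -0.12). Larval serum protein 2 (Lsp2), a storage protein made by the fat body, gave 2375, 2850.5 and 3207 in hyperoxia, against 11491, 13416 and 15911 in young controls. The groups were far apart (log2 fold change -2.24, SE 0.16, adjusted p = 1.25e-12). Apolipophorin (apolpp), the protein of the main lipid carrier of the blood, gave 6013, 6624 and 7206 in hyperoxia, against 11078, 13213 and 16138 in young controls, also without overlap (log2 fold change -1.002, SE 0.12, adjusted p = 6.96e-08). Apoltp, a lipid transfer protein of the blood, was not called (0.34, adjusted p = 0.0346). Acetyl-CoA carboxylase (ACC), which starts fatty acid synthesis, fell by 0.61 (adjusted p = 2.34e-06), though it missed the fold threshold when its probe sets were averaged (-0.39). The lipid droplet protein Lsd-1 fell by 0.68 (adjusted p = 2.89e-04). Among the genes that rose were Pepck2 and Pepck1, which lead to glucose synthesis, by 0.94 (adjusted p = 2.62e-06) and 0.74 (adjusted p = 2.97e-08), and pudgy (pdgy), an acyl-CoA synthetase, by 0.81 (adjusted p = 1.35e-05). The fat lipase brummer (bmm) was called (0.69, adjusted p = 0.0179) only in the nested test, and its arrays overlapped, with 1693, 2095 and 2553 in hyperoxia, against 924, 1063 and 2257 in young controls, and the call was lost without Young controls replicate 6 (0.60, adjusted p = 0.0558). A probe set named Mcad, an enzyme of mitochondrial fat oxidation, through the study's tables gave 25349, 31013 and 32044 in hyperoxia, against 11542, 13822 and 15911 in young controls, without overlap (log2 fold change 1.08, SE 0.10, adjusted p = 7.94e-10).

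Few listed genes of mitochondria and central metabolism were called, against 8.23% of all genes. For the shorter lists, no call at all is near that share. None of 31 complex I genes was called (median -0.08, range -0.40 to 0.26), nor any of 16 ATP synthase genes (median -0.07), 13 genes of the tricarboxylic acid cycle (median 0.13) or 14 of mitochondrial protein import (median 0.11). The bright complex I subunit ND-B16.6 gave 19356, 20306 and 22822 in hyperoxia, against 22672, 24231 and 24554 in young controls. The lower hyperoxia range overlapped that of young controls (log2 fold change -0.20, SE 0.06, adjusted p = 0.033). Of 23 genes of complexes II to IV 2 rose and 1 fell (8.7% and 4.35%, against 3.45% and 4.78% of all genes). The gene that fell was UQCR-14, a subunit of complex III (-0.76, adjusted p = 2.41e-05). Those that rose were the cytochrome c oxidase subunit genes COX7C (0.83, adjusted p = 0.00677) and COX6AL2 (0.62, adjusted p = 1.76e-05). The call of COX6AL2 was lost when certain single arrays were left out. The ATP synthase subunit genes blw and ATPsynO were at -0.31 (adjusted p = 0.00649) and 0.01 (adjusted p = 0.977). In the citrate cycle ScsbetaA, a succinyl-CoA synthetase subunit, gave 24070.3, 26329 and 29163 in hyperoxia, against 16544, 18075 and 20486 in young controls. It did not overlap between groups but stayed below 1.5-fold (log2 fold change 0.53, SE 0.08, adjusted p = 3.07e-06). Of 64 mitochondrial ribosomal proteins 1 fell (1.56%, against 4.78% of all genes). It was mRpS6 (-0.65, adjusted p = 5.01e-04), a call that was lost without Hyperoxia replicate 1 (-0.53). In the proton pump of acidic organelles, the vacuolar ATPase, 1 of 29 genes rose and 1 fell (3.45% each, near the shares of all genes; median 0.01). In glycolysis 1 of 13 fell (7.69%, against 4.78% of all genes), the glycerol-3-phosphate dehydrogenase Gpdh1 with a log2 fold change of -1.06 (SE 0.12, adjusted p = 6.09e-08), while Gapdh1 was at -0.04 (adjusted p = 0.774).

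**Figure D4:**
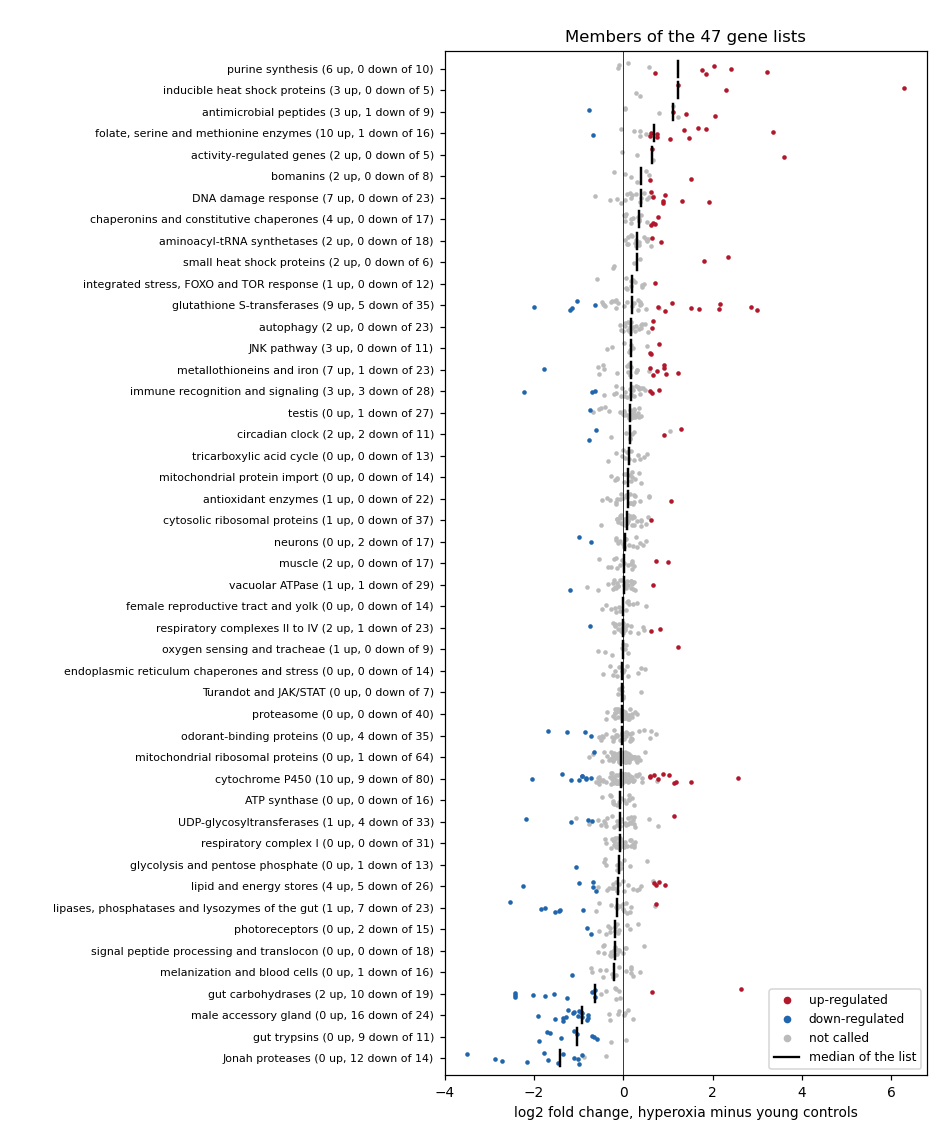
The log2 fold change, hyperoxia minus young controls (x axis), of every measured member of the 47 gene lists (rows, ordered by their median, the black bar), with called genes in red or blue. Purine synthesis and inducible heat shock proteins stand at the top with medians of 1.23 and 1.23, and Jonah proteases and gut trypsins at the bottom with -1.41 and -1.03.

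Accessory gland genes fell in most cases, and no testis gene rose past the threshold. Of 24 accessory gland genes, which encode seminal fluid proteins, 16 fell and none rose (66.7%, against 4.78% of all genes; median -0.92), and their summed signal was 213556 to 237761 in hyperoxia, against 261631 to 287486 in young controls. Acp36DE, a protein that females need to store sperm, gave 1042, 1343 and 1408 in hyperoxia, against 3352, 3667 and 4539.5 in young controls. The groups did not overlap (log2 fold change -1.53, SE 0.13, adjusted p = 6.53e-11). Acp26Aa, ovulin, which raises egg laying after mating, gave 484, 614 and 798 in hyperoxia, against 1386, 1519.5 and 2276 in young controls, without overlap (log2 fold change -1.35, SE 0.18, adjusted p = 1.22e-06). The serpin Acp76A had the largest fall of the list (-1.92, adjusted p = 4.85e-09), and Acp53C14b fell by 1.35 (adjusted p = 2.22e-06). Of 27 testis genes 1 fell, none rose, and 20 lay above 0 (median 0.16). Mst84Db, a protein of the sperm tail, gave 41967, 43391 and 46148 in hyperoxia, against 30052, 34767 and 38066 in young controls. It was higher on every hyperoxia array, by less than the threshold (log2 fold change 0.34, SE 0.07, adjusted p = 4.32e-04).

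Muscle, eye, nerve and clock lists each had a few called members. Of 17 sarcomere genes 2 rose (11.8%, against 3.45% of all genes), TpnC41C, a troponin C, and Zasp66, a Z-disc protein. TpnC41C gave 7913, 8638 and 9025 in hyperoxia, against 4034, 4326 and 4508 in young controls. The arrays were tight within each group (log2 fold change 0.996, SE 0.09, adjusted p = 9.83e-10), and Zasp66 rose by 0.74 (SE 0.09, adjusted p = 7.77e-08). Of 15 photoreceptor genes 2 fell (13.3%, against 4.78% of all genes) and 12 lay below 0 (median -0.18). Arrestin Arr1, which quenches rhodopsin, gave 7259, 7593 and 10723 in hyperoxia, against 12502, 13351 and 14347 in young controls, without overlap (log2 fold change -0.73, SE 0.09, adjusted p = 2.12e-07), and the scaffold inaD fell by 0.82 (adjusted p = 1.18e-05). Of 17 neuronal genes 2 fell (11.8%). They were pale (ple), the tyrosine hydroxylase of dopamine synthesis, at -1.001 (adjusted p = 1.48e-04) and the vesicle transporter Vmat at -0.73 (adjusted p = 0.00301). Ddc, the dopa decarboxylase, was not called (0.22, adjusted p = 0.132). Odorant-binding proteins fell in 4 of 35 cases (11.4%), led by Obp99b (-1.69, adjusted p = 4.21e-06) and Obp8a (-1.26, adjusted p = 0.0011). Of 11 clock genes 2 rose and 2 fell (18.2% each). Vrille (vri), a repressor of Clk, gave 3273, 3665 and 4352 in hyperoxia, against 1207, 1469 and 1851 in young controls, without overlap (log2 fold change 1.30, SE 0.11, adjusted p = 1.64e-10), and clockwork orange (cwo) rose by 0.91 (adjusted p = 2.90e-04). Clock (Clk) fell by 0.78 (adjusted p = 2.97e-05) and timeless (tim) was at -0.62 (adjusted p = 3.03e-05), the last at -0.14 when its probe sets were averaged. Neither the labels nor the methods give the hour of sampling, so the part of the time of day in these values was not tested.

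Hyperoxia was next set against the 4 arrays of old males directly. The young controls are shared by both comparisons and cancel in this contrast, which asks where the level in hyperoxia differs from that in old age. At an FDR of 1% within the contrast and 1.5-fold, 1018 genes were higher in hyperoxia than in old males (9.40%) and 581 were lower (5.37%). Of the genes up-regulated by oxygen 103 were higher than in old males and 18 were lower. Of those down-regulated by oxygen 214 were lower and 6 were higher than in old males. Both sets were chosen by their change on the same hyperoxia arrays, which tilts these counts toward a larger change in hyperoxia. CG7632 rose by 2.66 in hyperoxia, against 0.37 in old males, a difference of 2.29 (SE 0.15, adjusted p = 1.53e-12). Cyp4e3 was higher than in old males by 1.98 (SE 0.16, adjusted p = 5.60e-11) and GstD2 by 1.47 (SE 0.16, adjusted p = 3.06e-08). Of the 5 inducible heat shock genes 4 were lower than in old males and none was higher. Hsp70 stood at 6.28 in hyperoxia, against 7.97 in old males, a difference of -1.69 (SE 0.33, adjusted p = 1.72e-04). Of the 6 small heat shock proteins 3 were higher than in old males and 2 were lower, with l(2)efl at 1.09 (SE 0.11, adjusted p = 5.25e-09), CG7409 at 1.43 (SE 0.11, adjusted p = 2.70e-11), Hsp27 at -1.74 (SE 0.18, adjusted p = 8.11e-09) and Hsp26 at -1.70 (SE 0.21, adjusted p = 1.12e-07) as the difference. Antimicrobial peptides were lower than in old males in 5 of 9 cases and higher in none, with Def at 1.40 in hyperoxia, against 5.38 in old males (-3.98, SE 0.37, adjusted p = 1.06e-09). Purine genes were higher in hyperoxia in 2 of 10 cases, Gart by 1.09 (SE 0.11, adjusted p = 2.00e-09) and Pfas by 0.76 (SE 0.10, adjusted p = 1.07e-06). Lsp2 was lower than in old males, with a difference of -2.44 (SE 0.17, adjusted p = 3.74e-12), and so was PGRP-SC2, with -1.77 (SE 0.19, adjusted p = 9.85e-09).

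Genes of the respiratory complexes, the citrate cycle and testis were often higher in oxygen than in old age, while those of mitochondrial ribosomes seldom were. In the direct contrast, 13 of 23 genes of complexes II to IV, 11 of 31 of complex I and 7 of 13 of the citrate cycle were higher in hyperoxia than in old males, and none of these was lower (background 9.40% and 5.37%). Of 64 mitochondrial ribosomal proteins 1 was higher and 1 lower, and of 16 ATP synthase genes 2 were higher and none lower. The aconitase gene mAcon1 was at 0.08 in hyperoxia, against -0.80 in old males, a difference of 0.88 (SE 0.08, adjusted p = 9.92e-10). Of 27 testis genes 19 were higher in hyperoxia and 1 was lower, with Mst84Da at 0.27 in hyperoxia, against -0.75 in old males (1.01, SE 0.09, adjusted p = 1.13e-10). TpnC41C, the troponin C, was at 0.996 in hyperoxia, against -0.68 in old males (1.67, SE 0.10, adjusted p = 3.41e-13), and Pepck2 at 0.94, against -0.87 (1.81, SE 0.15, adjusted p = 7.51e-11). Gut enzymes were more often lower than higher in hyperoxia. Of 14 Jonah proteases 6 were lower than in old males and none was higher (median difference -0.61), of 11 gut trypsins 2 were lower and none was higher, and of 19 gut carbohydrases 8 were lower and 3 higher (median difference -0.65). Jon99Ci differed by -1.35 (SE 0.15, adjusted p = 2.71e-08) and LManIII by -1.97 (SE 0.25, adjusted p = 3.03e-07). Against the direction of these lists, CG12374, which is in none of them, fell less in hyperoxia (-3.27) than in old males (-4.79), a difference of 1.51 (SE 0.16, adjusted p = 1.51e-08).

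The effect of hyperoxia was also set against that of feeding hydrogen peroxide, each relative to the controls of its own experiment. The peroxide flies spent 2 days in sucrose vials and their Stress controls did not, so this contrast does not tell diet from oxidant on that side. The series also holds arrays of flies kept on sucrose alone (Sugar), which do not enter this contrast, and the part of diet was not tested. The paper lists Cyp4e3, CG12374, Lsp2 and several Jonah proteases, trypsins and accessory gland genes as lowered by sucrose vials alone, and MtnB as raised. By the difference of the 2 effects, 528 genes were higher for hyperoxia (4.88%) and 454 lower (4.19%). Among the genes that oxygen raised, 51 had a higher change than with peroxide and 37 a lower one, and among those it lowered, 41 were lower and 125 higher than with peroxide. These genes were likewise chosen by their change in hyperoxia, which tilts such counts toward a larger change there. GstE1 was at 2.86 in hyperoxia, against 0.53 with peroxide, a difference of 2.33 (SE 0.17, adjusted p = 4.61e-11). GstE7 and GstE8 differed likewise, by 2.14 (SE 0.24, adjusted p = 8.98e-08) and 1.84 (SE 0.18, adjusted p = 5.26e-09). Cyp4e3 was at 2.56 in hyperoxia, against 0.15 with peroxide (2.42, SE 0.23, adjusted p = 3.09e-09). GstD2 was at 2.99 in hyperoxia and 3.08 with peroxide, and the difference did not pass the test (-0.09, SE 0.23, adjusted p = 0.852).

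In the purine list 2 of 10 genes and in that of folate, serine and methionine 6 of 16 were lower for oxygen than for peroxide, and none was higher. Nmdmc stood at 3.34 in hyperoxia, against 5.05 with peroxide (-1.71, SE 0.26, adjusted p = 1.38e-05), and Pfas at 2.40, against 4.28 (-1.88, SE 0.15, adjusted p = 1.48e-10). For Gart the difference missed the fold threshold (-0.56, SE 0.15, adjusted p = 0.00881). Metallothionein MtnB fell in hyperoxia (-1.78) and was at 1.22 with peroxide, a difference of -3.004 (SE 0.57, adjusted p = 2.81e-04). For gut proteases the difference ran the other way. Of 14 Jonah genes 9 and of 11 trypsins 8 were higher under hyperoxia than under peroxide by the test of the difference, and none was lower. CG12374 changed by -3.27 in hyperoxia, against -6.35 with peroxide (3.08, SE 0.23, adjusted p = 4.97e-11). Accessory gland genes differed in the same sense in 14 of 24 cases, and none was lower. Lsp2 fell further with oxygen (-2.24, against -1.19 with peroxide, -1.05, SE 0.25, adjusted p = 0.00277).

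**Figure D5:**
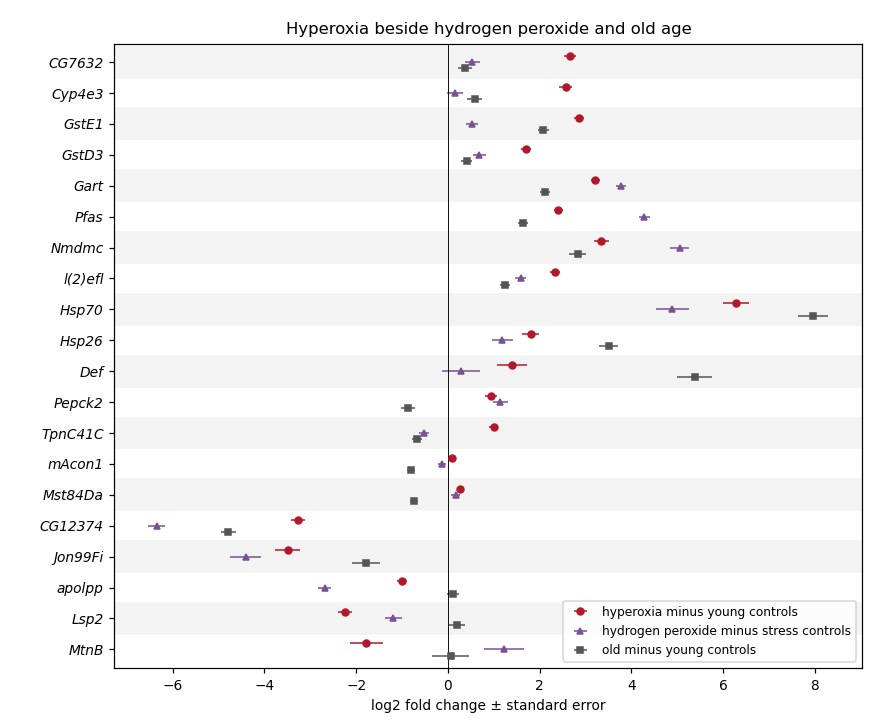
For 20 genes, the log2 fold change with its standard error in hyperoxia (red circles, upper), with hydrogen peroxide (purple triangles, middle) and in old age (gray squares, lower), each against its own controls. Hsp70 and Def lie farther right in old age than in hyperoxia, Cyp4e3 and GstE1 lie farthest right in hyperoxia, and MtnB and Lsp2 lie farthest left in hyperoxia. The peroxide flies, unlike their controls, were kept on sucrose, and the part of diet was not tested.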

How the data were processed

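RNA of whole males was hybridised to Affymetrix DrosGenome1 arrays. The deposited values are intensities, the MAS5 signals on a linear scale that the authors scaled to a common trimmed mean on 31 of the 35 arrays. No source names the version of MAS5. The labels and the methods differ on the amount of RNA. Signals of 13966 probe sets were quantile-normalized over the 35 arrays, and log2(signal + 34.1) was fitted in limma 3.58.1 (R 4.3.3) with 8 group means and 27 residual degrees of freedom (30.2 after moderation). The pseudocount is the 10th percentile of all normalized values. Of several probe sets of a gene, the brightest stood for it, and those matching several genes entered no count. Names from the study's gene tables exist only for probe sets that its tables of changed genes hold, and these entered no count either. The methods of the study gave the test and thresholds. Calls against old and against peroxide used Benjamini-Hochberg within the contrast. Arrays have no depth, and their number limits the precision. The labels describe separate vials for the stress treatments and do not say it of the young arrays, and no label gives a batch. The p-values therefore measure the spread between arrays within groups, pooled over the 35 arrays of all 8 groups. With only the 12 arrays in the model and Benjamini-Hochberg adjustment, 292 genes were up-regulated and 429 down-regulated. The text names the largest called changes without overlap, the called members of each list with the largest changes, the brightest members of lists with few calls and genes the study names. Jon99Ci, CG7409, Hsp27, Apoltp and Ddc were chosen after their values were seen. Members and lists were chosen with earlier results of these data known. The fit was tested on simulated data.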

Additional observations from a re-analysis of the deposited data

Results flagged for a closer look

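Of 380 groups of 6 arrays, a gene in 1 group each, 31 (8.16%) held an array far from the others, 15 in hyperoxia and 16 in young controls. Chance flags about 1 in 20 groups. Low values in hyperoxia stood on replicate 5 for GstE7 (1638.7), Ku80 (160.6), Sec61beta (4131.2), TpnC41C (7912.7) and Trx2 (5449.3), on replicate 1 for inaD (331.7) and mRpS6 (464.9), on replicate 2 for GstZ1 (115.4) and on replicate 3 for Irbp (190.9). High values in hyperoxia stood on replicate 2 for CG10657 (740.7) and Zasp66 (18568), on replicate 3 for Arr1 (10723), on replicate 6 for GstD11 (81.2), on replicate 4 for Jon44E (166.9) and on replicate 1 for Xpc (407.7).

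High values in young controls stood on replicate 5 for Def (256.4), Drs (5234.7) and Hus1-like (112.7), on replicate 4 for alphaTry (62084.9), Jon25Biii (25656.2) and Ser8 (4038.4), and on replicate 6 for aay (2302.1) and IscU (13143.5). Low values in young controls stood on replicate 2 for CCT2 (2730.7), mre11 (149.3) and RpS26 (41116.5), on replicate 3 for COX7C (59.9) and TrpRS (387.8), on replicate 5 for CG8665 (426.9), on replicate 6 for COX6AL2 (261.1) and on replicate 4 for Pcyt1 (1788.5).

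By the tests of the difference, 1599 genes had another level in hyperoxia than in old males, and 982 genes had another change in hyperoxia than with hydrogen peroxide.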

How the results depend on the processing

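Other normalizations, pseudocounts, filters, models, tests and probe set rules, and the leaving out of each array, were applied to the counts of calls and to 190 named genes. Without further normalization 580 genes were up-regulated (373 in the main analysis), and at a fold change of 1.2 the counts were 970 up, 949 down and 328 in the gene lists (193). The cause was not tested. Leaving out single arrays gave 360 to 398 up, 495 to 533 down and 187 to 200 list members. The median over all genes was 0.0375 without further normalization and 0.00794 with median scaling. Replicate numbers of the titles did not pair the arrays, since deviations of the 6 pairs correlated between -0.0446 and 0.0748 and 1 of 6 hyperoxia arrays was closest to its own number. With the replicate number as a block on the 12 arrays, 220 genes were up-regulated and 355 down-regulated, with 141 in the lists. The counts against old (1599) and against peroxide (982) stayed within 1.5 times, at 1430 to 1712 and 874 to 1015.

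Of the 159 called named genes, 118 kept their call under every alternative, 41 lost it under at least 1, 14 when an array was left out, and none changed sign. Without Young controls replicate 3 the calls of TrpRS (0.57), PGRP-SB1 (-0.54) and SPE (-0.58) were lost. Without Young controls replicate 6 those of CG6287 (0.58), Jra (0.54), COX6AL2 (0.55), bmm (0.60) and tim (-0.58) were lost, without replicate 2 that of Gadd45 (0.56) and without replicate 1 that of CG6287 (0.57). Without Hyperoxia replicate 1 those of Jra (0.58), mRpS6 (-0.53) and sr (0.57) were lost, without replicate 2 those of Jra (0.57) and CG8665 (-0.58), without replicate 3 those of CG6287 (0.58), Jra (0.57) and Rel (0.58), without replicate 4 those of Gnmt (0.56), CG6287 (0.58) and COX6AL2 (0.56), without replicate 5 those of SPE (-0.58) and tim (-0.55), and without replicate 6 those of Gnmt (0.58) and PGRP-SB1 (-0.61). The gene per, not called, was called without further normalization (1.11) and without Hyperoxia replicate 1 (1.31). Averaging probe sets took cwo (0.47), Ugt35B1 (-0.58), Vmat (-0.51) and Npc2h (-0.52) below the threshold.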

Other observations

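Several called genes outside the lists, chosen after their values were seen, belong to known processes. RPA1, the large subunit of the protein that coats single-stranded DNA, gave 2026, 2464 and 2690.2 in hyperoxia, against 772, 895 and 1031 in young controls, without overlap (log2 fold change 1.39 (SE 0.08, adjusted p = 4.41e-14) by limma). RPA3, a smaller subunit, rose by 0.68 (adjusted p = 1.44e-06), Xpc, which recognises damaged DNA in excision repair, by 0.80 (adjusted p = 4.00e-05), and Hus1-like, a checkpoint clamp subunit, by 1.18 (adjusted p = 0.0025). Mcm2, a subunit of the replicative helicase, rose by 0.98 (adjusted p = 0.00335), with overlap at low signals. RtcB, the ligase that joins spliced tRNA and the Xbp1 transcript, and its cofactor Archease rose by 0.73 (adjusted p = 2.12e-05) and 1.24 (adjusted p = 5.76e-08). Nubp1 and Nubp2, scaffold proteins of iron-sulfur clusters in the cytosol, rose by 0.94 (adjusted p = 3.17e-10) and 0.75 (adjusted p = 6.71e-04).

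Other called genes, also chosen after their values were seen, act on lipids. Pcyt1, the rate-limiting enzyme of phosphatidylcholine synthesis, gave 8671, 10706 and 12087 in hyperoxia, against 1788, 2518 and 2728 in young controls, without overlap (log2 fold change 2.10, SE 0.14, adjusted p = 5.18e-13). Dgat2, which makes triglyceride, and Lpin, which makes its precursor, rose by 1.75 (adjusted p = 3.56e-06) and 0.72 (adjusted p = 4.55e-06). Several genes related to the sterol-binding protein NPC2 fell. Npc2f gave 123, 205 and 346 in hyperoxia, against 854, 1018 and 1206 in young controls, without overlap (log2 fold change -2.12, SE 0.17, adjusted p = 2.50e-11), and Npc2d, Npc2g and Npc2h changed by -2.07, -1.07 and -1.03.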
